A study of Mus musculus with 9 samples.

Results

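Protein-coding genes of the mouse liver that lie within 2.5 kb of another protein-coding gene were compared between 18 and 3 months of age. In the GENCODE annotation vM21 (GRCm38), 8371 genes on chromosomes 1 to 19 were longer than 2 kb and had such a neighbour on either strand. Of these, 5563 had 50 or more sense reads in the mean of the 6 libraries compared, and 2808 fell below. The whole table of 11511 genes that pass the same read filter held 5948 further genes without a close neighbour, called isolated genes here. Ly9, Cd63 and Sptb lay just inside the read filter with a mean of 50 sense reads, and Ddias and Zfp963, with 49.8, and Arhgef25, with 49.7, just outside it.

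The data are tNET-seq, native elongating transcript sequencing of tissue, which reads the 3′ end of RNA held by RNA polymerase II (Pol II) and so marks a position of the polymerase. The livers came from C57BL/6N mice aged 3 or 18 months, with 3 libraries per age, and no allele or treatment of the animals is named in the labels. The fractions of all libraries were prepared with alpha-amanitin, an inhibitor that stops Pol II. Per the study's methods the replicates are biological, and n = 3 libraries per age throughout. Libraries 1, 2 and 3 held 37994442, 38233444 and 49307594 reads at 3 months and 15003713, 43946951 and 33559041 at 18 months, of which close-neighbour genes took 22.01% to 24.15%.

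Genes lie close together in several arrangements. In a divergent pair the start sites face away from each other, often across a short shared promoter region. In a convergent pair the gene ends face each other, and in a tandem pair both genes run the same way, so that polymerase that has passed the end of the first can approach the start of the second. A gene can also lie inside another on the opposite strand, or overlap it on the same strand. Strand-specific maps of Pol II separate neighbours on opposite strands, whereas same-strand overlaps cannot be assigned, so positions shared by 2 genes of a strand were not counted. Among the 5563 genes, 2157 had a divergent, 2668 a convergent and 1529 a tandem neighbour, 446 a gene nested on the opposite strand and 422 a same-strand overlap. A single kind of neighbour was found for 4050 genes. The median length of the 5563 genes was 22598 bases, against 37499 for isolated genes.

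Markers of hepatocytes held far more reads than those of other liver cells. The 10 hepatocyte markers found, among them the albumin gene, summed to 15864 to 20245 reads in 1000000 reads of a library at 3 months and 13342 to 16624 at 18 months. Of these, Cps1 and Pck1 fell, by 0.80 and 0.99 on the log2 scale. Among 13 tested macrophage markers, 3 rose (Marco 2.79, Lyz2 1.00 and Cx3cr1 0.95 on the log2 scale) and Cd5l fell by 0.96, and the sum of the list was 263 to 312 at 3 months and 215 to 285 at 18 months, with Itgam at 0. Counted over its whole span, Cx3cr1 changed in the other direction. Endothelial (703 to 864 against 724 to 873), stellate (402 to 435 against 358 to 401), lymphocyte (45.3 to 52.8 against 55.6 to 66.9), cholangiocyte (48.4 to 61.0 against 39.5 to 62.4) and erythroid markers (21.8 to 24.9 against 26.0 to 29.6) held fewer reads. The endothelial gene Ehd3 (-0.45) and the stellate genes Hand2 (-0.90) and Colec11 (-0.41) were called, all lower, and the sums of the ages did not overlap for stellate, lymphocyte and erythroid markers. In whole tissue, fewer cells of a type and less RNA per cell cannot be told apart, and the part of these markers in the changes below was not tested.

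Gene-body reads, from 200 bases after the start to 200 bases before the end of a gene, were compared between 18 and 3 months. Of 5551 tested close-neighbour genes, 515 were called at an adjusted p under 0.05 (edgeR quasi-likelihood test, Benjamini-Hochberg adjustment over the whole table), which is 9.28%. The background over all 11499 tested genes was 10.4%, and isolated genes stood at 11.4%. At an unadjusted p under 0.05, edgeR had 28.2% of close-neighbour, 31.3% of isolated and 29.8% of all genes, and DESeq2 called 13.5%, 16.7% and 15.1% at its adjusted p. Among close-neighbour genes, 226 were higher (4.07%) and 289 lower (5.21%) at 18 months, against 5.24% and 5.13% over all genes and 6.34% and 5.06% of isolated genes. The share of members called was therefore close to the background. The split moved to 156 higher and 134 lower without 18-month library 1, to 107 and 102 without 18-month library 3, and to 232 and 236 when only positions with no other gene on either strand were counted. The median log2 change was -0.03 over close-neighbour genes, 0.01 over isolated genes and -0.01 over all. In the difference of the medians of the 2 classes, the libraries of the ages did not overlap (0.04, 0.01 and 0.03 at 3 months, -0.02, 0.00 and -0.02 at 18 months), and it shifted by -0.04, at the smallest p this design allows (exact two-sided permutation test, p = 0.1).

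Most called changes were modest. The median size was 0.54 on the log2 scale, 67 of the 515 exceeded 1, and in 513 the libraries of the ages did not overlap. Non-overlapping libraries were found for 1922 of the 5551 genes, or 34.6%, against 34.8% of all and 34.9% of isolated genes. The number of calls rested on single libraries: it was 117 without 3-month library 3, 219 without 3-month library 2, 253 without 3-month library 1, 209 without 18-month library 3 and 290 without 18-month library 1. Whichever of the 9 libraries of the fit was left out, 103 genes remained called, 40 higher and 63 lower. On intronic positions alone, 268 of the 515 were also called.

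The largest falls among close-neighbour genes ranged from the loss of reads at a single position to a loss along the whole gene. Values are given as RPM, the gene-body reads of a gene in 1000000 gene-body reads of the library, with the total scaled by TMM. Csmd2, which encodes a membrane protein with CUB and sushi domains, had 58.9, 49.6 and 38.0 RPM at 3 months and 4.05, 3.16 and 2.58 at 18 months. The groups did not overlap, and the fall was 3.95 on the log2 scale (SE 0.32, edgeR adjusted p = 0.000354). At 3 months, 91.0% of its reads lay at a single intronic position, 216638 bases after the start, and 3.49% did so at 18 months. Away from that position the change was -0.50, and with at most 5 reads counted per position it was -0.37 and no longer called (edgeR adjusted p = 0.223).

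Sim2, a developmental transcription factor of the bHLH-PAS family, had 17.2, 39.8 and 54.2 RPM at 3 months and 7.75, 4.61 and 1.96 at 18 months, with no overlap. An intronic position 36618 bases after its start held 89.9% of its reads at 3 months and 76.4% at 18 months. Kat5, the catalytic subunit of the TIP60 histone acetyltransferase, had 79.5, 111 and 125 RPM at 3 months and 46.4, 24.7 and 23.2 at 18 months. In Kat5 the position lay 409 bases after the start and held 56.7% of the reads at 3 months and 38.8% at 18 months. The calls of Sim2 (-3.07, SE 0.71, edgeR adjusted p = 0.0284) and Kat5 (-1.77, SE 0.36, edgeR adjusted p = 0.0176) were lost with at most 5 reads per position, where the changes were -0.64 and -0.22. Away from the dominant position, mean RPM changed by -1.95 in Sim2 and -1.29 in Kat5 on the log2 scale. The fall of Csmd2 thus lay mostly at its position, whereas Sim2 and Kat5 also lost reads at other positions. With at most 5 reads per position, however, the change of Kat5 was smaller than that of Csmd2.

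The sequences around these positions are shown because a single position held most of the 3-month reads of Csmd2, Sim2 and Kat5, and 59.5% of those of Ripply2, a gene of body segmentation. Away from its position, the mean RPM of Ripply2 changed by -1.89 on the log2 scale. The treatment of duplicates is not given in the sources used here, so copies of 1 molecule and separate molecules cannot be told apart at these positions. Each window holds 30 bases on either side, 5′ to 3′ on the strand of the gene, with the position of the reads in capitals. They are chr4:128204652-128204712 on the plus strand, chr16:94121519-94121579 on the plus strand, chr19:5609798-5609858 on the minus strand and chr9:87015970-87016030 on the plus strand, in the order listed, and all 4 positions are intronic in GRCm38.
Csmd2: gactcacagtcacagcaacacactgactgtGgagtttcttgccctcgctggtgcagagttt
Sim2: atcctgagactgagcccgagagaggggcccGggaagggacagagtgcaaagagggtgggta
Kat5: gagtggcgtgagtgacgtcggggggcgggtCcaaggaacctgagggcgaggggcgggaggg
Ripply2: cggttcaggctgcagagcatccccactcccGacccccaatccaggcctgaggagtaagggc

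Fbxo31, the substrate-binding subunit of a ubiquitin ligase, fell along its whole length (chr8:121549440-121578806, minus strand). It had 218, 170 and 269 RPM at 3 months and 69.1, 71.3 and 48.9 at 18 months, a change of -1.80 (SE 0.19, edgeR adjusted p = 0.00133). The reads lay at 10031 positions, and the highest of these held 0.642% of them at 3 months. Intronic reads fell from 174 ± 39.0 to 48.7 ± 10.4 RPM (SD), a change of -1.90 (SE 0.20, edgeR adjusted p = 0.00167), and exonic reads from 45.7 ± 10.5 to 14.4 ± 3.44. The 18-month libraries were thus lower in exons and introns alike, and the call was kept whichever library was left out. The 1800 bases before its start held more sense reads than the first 1800 bases after it. Unscaled reads, summed over the libraries of an age, went from 10800 to 4814 before the start and from 1128 to 277 after it. The gene on the opposite strand, Gm20388, also fell, by 0.56 on the log2 scale.

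Cib3, which encodes a calcium-binding protein, also fell without a dominant position. It had 11.2, 11.5 and 10.7 RPM at 3 months and 3.36, 3.13 and 2.96 at 18 months (-1.83, SE 0.40, edgeR adjusted p = 0.0231), and its highest position held 6.04% of the 3-month reads. Il17re, a receptor subunit for interleukin 17C, had 5.34, 12.1 and 17.6 at 3 months and 0.93, 0.61 and 1.86 at 18 months, so that the 3-month libraries were far apart among themselves. Its change was -3.36 (SE 0.58, edgeR adjusted p = 0.0102), with 52.98% of the 3-month reads at a single exonic position and -3.21 elsewhere. Misp, a protein of spindle positioning, with 89.1% of its 3-month reads at a single position (-2.82), Raly, an RNA-binding protein with only 69 bases free of its same-strand neighbour (-1.77), and E030018B13Rik, nested in Klf13 (-1.72), completed the 10 largest falls. Klf13, a zinc-finger transcription factor, fell with it by 0.96. The call of Raly was lost when shared positions were counted, where the change was -0.06. Fbxo31 and Csmd2 kept their calls whichever library was left out. As a description, the adjusted p of Il17re also stayed under 0.05 in all 9 such fits. The others kept it in 7 (Kat5), 5 (Sim2), 4 (Cib3 and Raly), 3 (E030018B13Rik), 2 (Ripply2) and 1 (Misp) of 9 such fits.

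**Figure D1:**
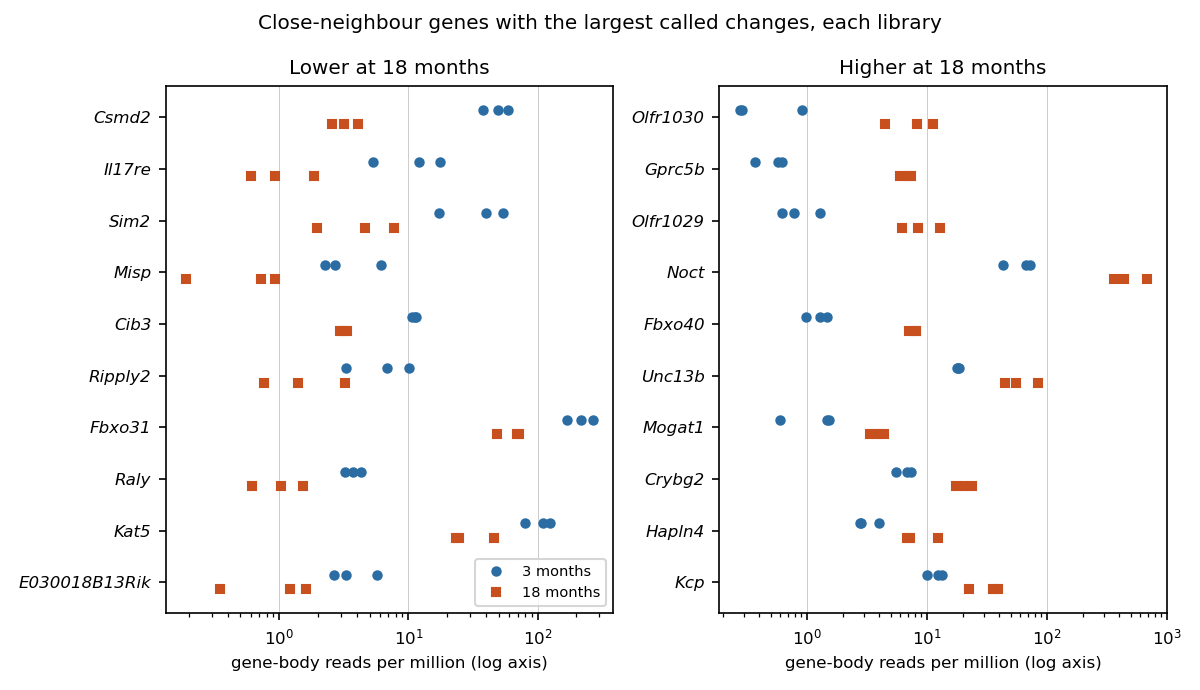
Gene-body RPM (log axis) of the 20 close-neighbour genes with the largest called changes, each of the 6 libraries as a point, falls on the left and rises on the right. The 3-month and 18-month libraries do not overlap in any of these genes, which the naming rule required.

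Noct (chr3:51224447-51251644, plus strand), which encodes nocturnin, a rhythmically expressed enzyme of the liver, showed the largest gain in reads among the rises. It had 43.2, 67.6 and 72.0 RPM at 3 months and 367, 441 and 680 at 18 months, a change of 3.03 (SE 0.26, edgeR adjusted p = 0.000455). The 18-month libraries lay far above the 3-month libraries, but the rise was not spread along the gene. No read of any of the 9 libraries lay, on either strand, in the 5318 bases at chr3:51239988-51245305, 15.5 to 20.9 kb after the annotated start, of which 99.8% are marked as repeats in the RefSeq sequence of GRCm38. The remaining parts of the gene were then compared separately, a choice made after this stretch was seen.

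In the 15541 bases before the stretch without reads, Noct had 33.6, 55.8 and 56.8 RPM at 3 months and 35.9, 35.1 and 49.1 at 18 months. These libraries overlapped (18 over 3 months 0.82-fold, exact two-sided permutation test, p = 0.4). In the 6339 bases after it there were 15.6, 21.4 and 25.3 at 3 months and 355, 432 and 665 at 18 months, a 23.3-fold difference of means without overlap (20.8 ± 4.85 against 484 ± 161, SD; exact two-sided permutation test, p = 0.1, the smallest possible). The first 1000 bases after the stretch rose from 5.21 to 118 RPM, whereas the last 1000 bases before it had 5.14 and 3.32. The ages thus parted on the far side of the stretch without reads, and the reads gained lay mostly in annotated exons, which rose from 20.8 ± 4.22 to 450 ± 153 (SD). Intronic reads of the whole gene were 40.2 ± 11.4 at 3 months and 45.9 ± 10.4 at 18 months (0.13, SE 0.20, edgeR adjusted p = 0.72). The convergent neighbour Elf2, 1075 bases away, had a change of 0.00.

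**Figure D2:**
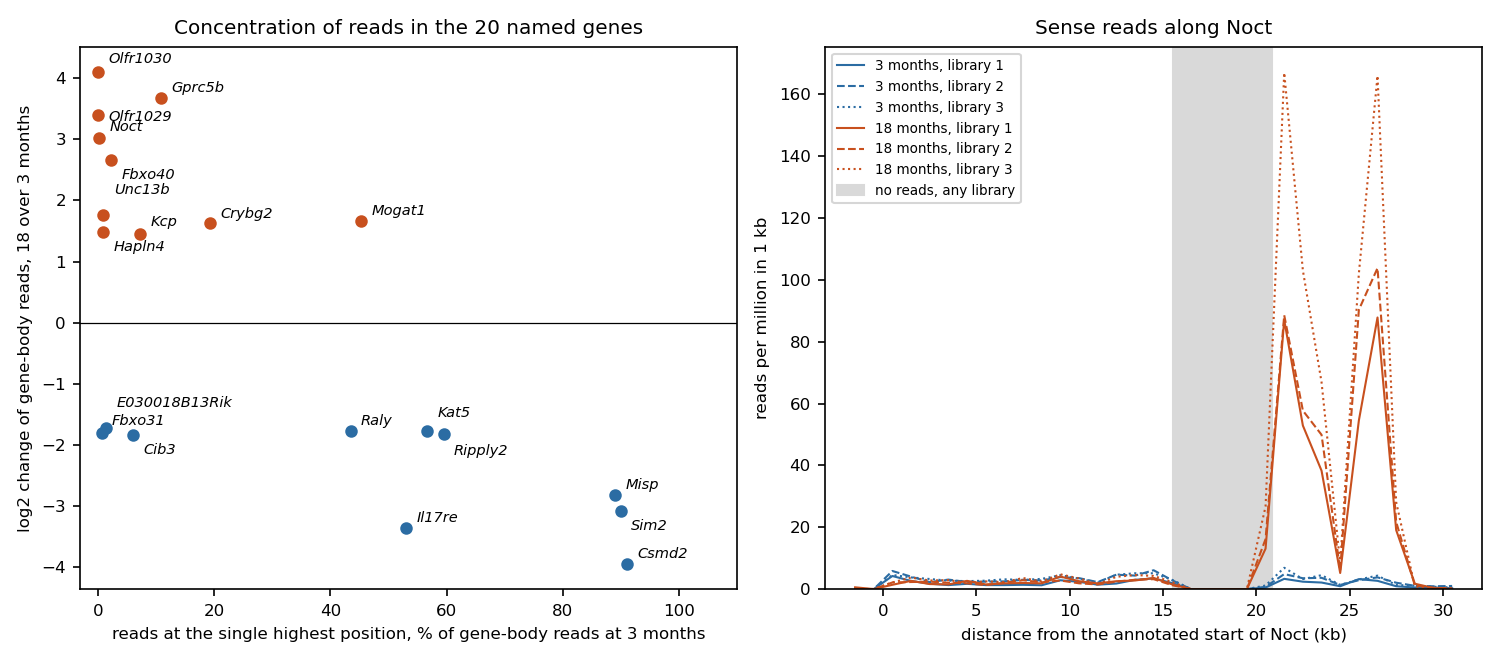
Left, log2 change of gene-body reads against the share of the 3-month reads at the single highest position (%) for the 20 named genes; the share is 91.0% in Csmd2 and 0.642% in Fbxo31. Right, sense RPM in steps of 1 kb along Noct in each of the 6 libraries, with the stretch without reads shaded; the 18-month libraries rise above the 3-month libraries after that stretch.

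Olfr1029 and Olfr1030, neighbouring odorant receptor genes on the plus strand of chromosome 2, rose together. Olfr1030 had 0.28, 0.91 and 0.29 RPM at 3 months and 4.51, 8.31 and 11.4 at 18 months (4.11, SE 0.45, edgeR adjusted p = 0.00158). Olfr1029 had 0.78, 1.30 and 0.62 at 3 months and 6.25, 8.50 and 12.9 at 18 months (3.41, SE 0.33, edgeR adjusted p = 0.000808). The groups were separated widely in both, but the reads did not begin at either gene. They belonged to a run of plus-strand reads of 35.4 kb at chr2:85957895-85993294 that began 16.0 kb before the annotated start of Olfr1029. The part before Olfr1029 had 4.58 ± 0.51 RPM at 3 months and 54.3 ± 17.0 at 18 months, 11.9-fold more, and the part from Olfr1029 to the end of Olfr1030 was 11.5-fold higher. The 20000 bases before the run held 3 reads in the 6 libraries, and the other strand of the run held 11. The run was delimited after its values were seen.

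Several of these genes passed the read filter through 1 age alone. Of the 20 named genes, Olfr1030, Olfr1029, Gprc5b, Fbxo40 and Mogat1 had a mean of 12.3, 22.7, 15.3, 29.7 and 43.3 sense reads at 3 months and over 50 at 18 months, and Il17re, Misp, Ripply2, Raly and E030018B13Rik had under 50 at 18 months alone. A gene kept in this way had to differ between the ages in unscaled reads, so the tests of these 10 genes are given as descriptions. Of 142 tested close-neighbour genes of this kind, 24 were among the 515 called.

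The other rises lay in genes with far fewer reads than Noct at 18 months. Of the close neighbours of the remaining rises, Hcls1 and Cd52 had enough reads for a test, and neither was called. Gprc5b, an orphan receptor of the G protein-coupled family, had 0.37, 0.58 and 0.62 RPM at 3 months and 6.83, 7.39 and 6.02 at 18 months (3.67, SE 0.40, edgeR adjusted p = 0.00173). Fbxo40, an F-box protein known from muscle, had 1.29, 1.49 and 0.98 at 3 months and 7.06, 8.16 and 8.12 at 18 months (2.66, SE 0.19, edgeR adjusted p = 0.000196). Unc13b, a priming factor of vesicle release, had 17.9, 18.4 and 18.3 at 3 months and 55.1, 44.7 and 85.4 at 18 months (1.76, SE 0.20, edgeR adjusted p = 0.00206). On intronic positions alone Unc13b was called too (1.82 on the log2 scale), and the value of Gprc5b was 3.29. In Gprc5b and Fbxo40, no more than 1 read lay in the 1800 bases before the start at either age, so these reads began within the genes. Hcls1, the convergent neighbour of Fbxo40 at 247 bases, had a change of 0.13 (edgeR adjusted p = 0.63).

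Mogat1, an acyltransferase of triglyceride synthesis, had 0.60, 1.49 and 1.52 RPM at 3 months and 3.82, 4.38 and 3.34 at 18 months (1.67, SE 0.36, edgeR adjusted p = 0.0214). Crybg2, a protein with crystallin-like domains (1.64), Hapln4, a link protein of the extracellular matrix (1.48), and Kcp, a modulator of BMP signalling (1.45), completed the 10 largest rises. In Kcp the 1800 bases before the start also gained, from 23 to 131 unscaled reads summed over the libraries of an age. Noct, Unc13b, Crybg2, Hapln4 and Kcp kept their calls whichever library was left out, and the adjusted p of Mogat1 was 0.0529 (edgeR) without 3-month library 3. On intronic positions alone the calls of Noct, Mogat1 (1.46, edgeR adjusted p = 0.0593) and Hapln4 (1.40, edgeR adjusted p = 0.0885) were lost.

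By arrangement, the share of genes called was 7.95% of 2152 with a divergent neighbour, 9.53% of 2665 with a convergent neighbour, 9.25% of 1525 with a tandem neighbour, 12.0% of 443 with a nested gene on the opposite strand and 10.5% of 410 with a same-strand overlap. Over all close-neighbour genes the share was 9.28%, over all genes tested 10.4% and in isolated genes 11.4%. The classes of neighbours share genes, and their differences were not tested. Genes with a divergent neighbour were called in both directions at similar numbers, 91 higher and 80 lower, with a median log2 change of 0.00. Genes with a tandem neighbour were called lower more often than higher, 98 against 43, with a median of -0.08. Over all close-neighbour genes 226 were higher and 289 lower, and in isolated genes 377 and 301. The split over all close-neighbour genes turned without 18-month library 1, and the class counts were not recomputed for such fits. Of 891 tested genes whose neighbours were all tandem, 27 were called higher and 52 lower (8.87% called). Of 1167 whose neighbours were all divergent, 63 were called higher and 38 lower (8.65%). These 2 classes also differed in median length, 17693 against 26650 bases, and the difference in their splits was not tested.

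Pairs were examined to see how far neighbours moved together. Among 893 divergent pairs with both genes tested, both were called in 11, and in 10 of these they moved the same way, 5 pairs up and 5 down. This is 1.23% of the pairs, against 28 of 2124 pairs (1.32%) of isolated genes 2.5 to 50 kb apart, where 19 of the 28 moved the same way, so the share with both called was close to that background. When exactly 1 gene of a divergent pair was called (116 pairs), the other had the same sign in 81, or 69.8%, but a median change of only 0.10 in that direction against 0.49 in the called gene. In isolated pairs the other gene had the same sign in 58.2%. Changes of the paired genes had the same sign in 62.4% of divergent, 57.6% of convergent and 61.1% of tandem pairs, and in 53.7% of the isolated pairs. Pairs in which 1 gene lay within the other on the opposite strand had both genes called in 9 of 137 (6.57%), 7 of them the same way, all lower, and 2 in opposite directions. Gm20388 was a member of 3 of these 9, and E030018B13Rik passed the read filter through 3 months alone. When exactly 1 gene of such a pair was called, the other had the same sign in 78.9%, and the difference from isolated pairs was not tested. In divergent pairs with start sites within 300 bases the share with the same sign was 66.0% of 456, with a correlation across pairs of r = 0.32. In those farther apart it was 58.6% of 437, with r = 0.18, and in isolated pairs r = 0.08. Tandem pairs had r = 0.30 and convergent pairs r = 0.12. The tandem value includes Olfr1029 with Olfr1030 (3.41 and 4.11), which lie in a single run of reads, and was not recomputed without that pair. The share with the same sign, 62.4% in divergent and 61.1% in tandem pairs, was not particular to divergent pairs. These are descriptions: the pairs share their libraries and a gene can belong to several. With only the 6 libraries in the fit, 3 divergent pairs had both genes called, and with DESeq2 21.

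Hjurp, a chaperone of centromeric histone (0.43), and Trpm8, a cold-sensing channel (1.47), rose as a pair. Their gene spans lie 27 bases apart, but the start sites of their canonical transcripts lie 29126 bases apart. Trpm8 had 0.92, 1.25 and 1.27 RPM at 3 months and 1.27, 4.46 and 3.15 at 18 months, where its lowest 18-month and highest 3-month libraries lay side by side.

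Falling divergent pairs were Lyzl4 (-0.71), a lysozyme-like protein, with Vipr1 (-0.66), the receptor of vasoactive intestinal peptide, and Sphk2 (-0.53), a sphingosine kinase, with the ribosomal protein gene Rpl18 (-0.56). Tbc1d17 (-0.56), a regulator of Rab proteins, and Akt1s1 (-0.49), an inhibitor of the mTORC1 kinase, start 84 bases apart and fell together. Vipr1 had 101, 96.0 and 102 RPM at 3 months and 65.7, 69.6 and 53.7 at 18 months. Named after their values were seen, further divergent pairs with both genes called included Srrd with Hps4 (-0.39 and -0.85), Nit1 with Pfdn2 (-0.42 and -0.34), Orc3 with Rars2 (0.35 and 0.33), Zfp277 with Dock4 (0.33 and 0.47) and Polk with Col4a3bp (0.36 and 0.28). Echs1 and Paox were the only divergent pair called in opposite directions.

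The bases between the genes are shown for 3 of these pairs to give the letters between the annotated gene ends. These 3 hold a match to a motif marked below. The stretches of Srrd with Hps4 and of Polk with Col4a3bp, not shown, hold none. The canonical start sites lie 25 bases apart in Nit1 and Pfdn2, 13 in Orc3 and Rars2 and 178 in Zfp277 and Dock4, so that the last stretch does not hold all bases between its starts. Each stretch is written on the plus strand of GRCm38 and reaches 30 bases into the gene on either side. Capitals mark a match on either strand to the GC box of Sp1-type factors, GGGCGG, to the CCAAT box, or to a motif of ETS-family factors, CCGGAAG. The stretches are chr1:171345617-171345699, chr4:34614915-34614986 and chr12:40445873-40445981, and the genes are 23, 12 and 49 bases apart.
Nit1 and Pfdn2: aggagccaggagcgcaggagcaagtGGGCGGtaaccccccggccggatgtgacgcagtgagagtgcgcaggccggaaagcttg
Orc3 and Rars2: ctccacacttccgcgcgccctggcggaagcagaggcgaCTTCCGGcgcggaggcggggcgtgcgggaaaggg
Zfp277 and Dock4: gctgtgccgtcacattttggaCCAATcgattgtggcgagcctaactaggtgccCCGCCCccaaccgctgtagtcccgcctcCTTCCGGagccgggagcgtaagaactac

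Promoters of 4429 of the 5563 close-neighbour genes were matched in the RefSeq promoter table (GRCm38.p6, 250 bases before to 50 after the start). Searched on both strands, CCGGAAG was present in 28.6% of 1785 promoters of genes with a divergent neighbour, 19.3% of the other close-neighbour promoters, 13.5% of isolated promoters and 8.86% of all 32851 promoters in the table. TATAAA ran the other way, with 4.59%, 7.19%, 8.23% and 13.6%. GGGCGG was found in 66.2%, 65.9%, 63.1% and 35.7%. A match describes the letters in the window and is not a bound site.

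**Figure D3:**
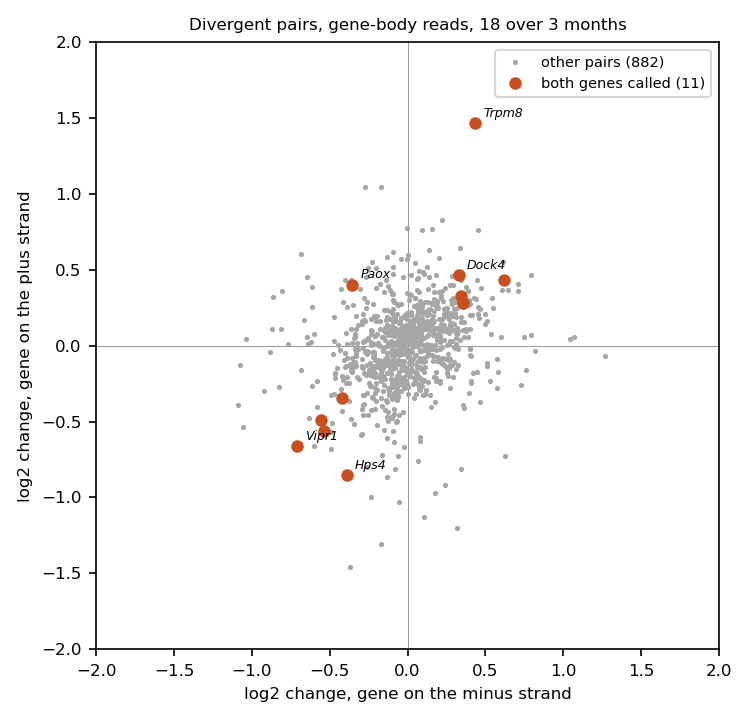
Log2 change of gene-body reads, 18 over 3 months, of the minus-strand gene against the plus-strand gene of 893 divergent pairs. The 11 pairs with both genes called are in orange, 5 of them labelled by the plus-strand gene, and 10 lie in the quadrants of equal sign; 1 further pair lies outside the plotted range.

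Among convergent pairs, 12 of 979 had both genes called (1.23%, against 1.32% of isolated pairs), 8 in the same direction. Cdip1, a p53-inducible gene of cell death signalling, had 289, 282 and 377 RPM at 3 months and 141, 154 and 130 at 18 months (-1.16, SE 0.14, edgeR adjusted p = 0.00233), with the same fall in introns (-1.25). Its overlapping opposite-strand neighbour Hmox2, a constitutive heme oxygenase, fell by 0.52, from 64.4 ± 2.61 to 45.0 ± 3.41 RPM (SD). A230050P20Rik and Angptl6, a secreted angiopoietin-like protein, were called in opposite directions (0.52 and -0.80). Tifa, an adaptor of NF-κB signalling, and Ap1ar both rose (0.54 and 0.52).

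Among tandem pairs, 9 of 588 had both genes called (1.53%, against 1.32% of isolated pairs), all in the same direction, 2 up and 7 down. In 1 of the rising pairs, Olfr1029 with Olfr1030 in a single run of reads, both genes passed the read filter through 18 months alone, and among the falling pairs Avil passed it through 3 months alone. Tedc2, a protein of centriole assembly, had 122, 115 and 137 RPM at 3 months and 63.9, 60.8 and 55.7 at 18 months (-1.05, SE 0.09, edgeR adjusted p = 0.000649). Ccnf, cyclin F, which lies 1346 bases from it, had 49.8, 49.1 and 44.6 at 3 months and 26.8, 32.3 and 25.4 at 18 months (-0.76, SE 0.10, edgeR adjusted p = 0.00447). Both were clearly lower in every 18-month library. Ctdsp2, a small phosphatase of the Pol II C-terminal domain family, and Avil, the actin-binding protein advillin, also fell (-0.74 and -1.11). With 2.5 kb after the upstream gene left out, Avil had -1.07 and was no longer called (edgeR adjusted p = 0.0524).

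Lists of genes of liver metabolism and of general cell functions were then read for their close-neighbour members. Counts are those of the main fit. With a library left out, edgeR called lower 3 to 14 genes of the respiratory chain and 1 to 8 of the proteasome. The respiratory chain and ATP synthase make ATP in mitochondria. Of the 64 members tested, 13 fell (20.3%, against 5.21% of all close-neighbour genes) and the other 51 were not called by edgeR, while DESeq2 called 15 lower and 2 higher. The members had a median log2 change of -0.15 against -0.03 over all close-neighbour genes. Atp5b, the catalytic subunit of ATP synthase, had 338, 287 and 298 RPM at 3 months and 180, 209 and 170 at 18 months (-0.72, SE 0.10, edgeR adjusted p = 0.00542). Atp5a1, its partner subunit, fell by 0.73, Atp5d by 0.63 and the complex I subunit Ndufs8 by 0.60. Others called included Ndufb10, Ndufv1, Sdha, Sdhd, Uqcrc2, Uqcrq, Cyc1 and Atp5j.

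These falls lay in exonic reads. Summed over the 64 genes, exonic positions held 1774, 1479 and 1564 RPM at 3 months and 1035, 1219 and 999.7 at 18 months, 0.675-fold and without overlap. Intronic positions held 843, 912 and 872 at 3 months and 965, 898 and 958 at 18 months, 1.07-fold with overlap. On intronic positions alone, 0 of the 62 genes with a test were called by edgeR (5 higher and 6 lower at an unadjusted p under 0.05). Genes of the proteasome and of ubiquitin, which marks proteins for degradation, showed a like division: 8 of 32 fell by edgeR, or 25% (Psmb10 -0.68, Psmd8 -0.61, Psmd9 -0.54 and Psmb8 -0.50), with exonic reads 0.765-fold and not overlapping and intronic reads 1.05-fold and overlapping, and 1 gene called lower on intronic positions. Of 50 genes of the mitochondrial ribosome 2 fell (Mrpl44 -0.67, Mrpl40 -0.62), or 4.0%, below the 5.21% of all close-neighbour genes called lower, with exonic reads 0.809-fold and intronic reads 1.10-fold. In both Mrpl44 and Mrpl40 the estimate on intronic positions was above 0 (0.17 and 0.24). Over all close-neighbour genes the exonic share of gene-body reads was 31.5% to 35.8% at 3 months and 28.6% to 33.5% at 18 months, which overlap.

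**Figure D4:**
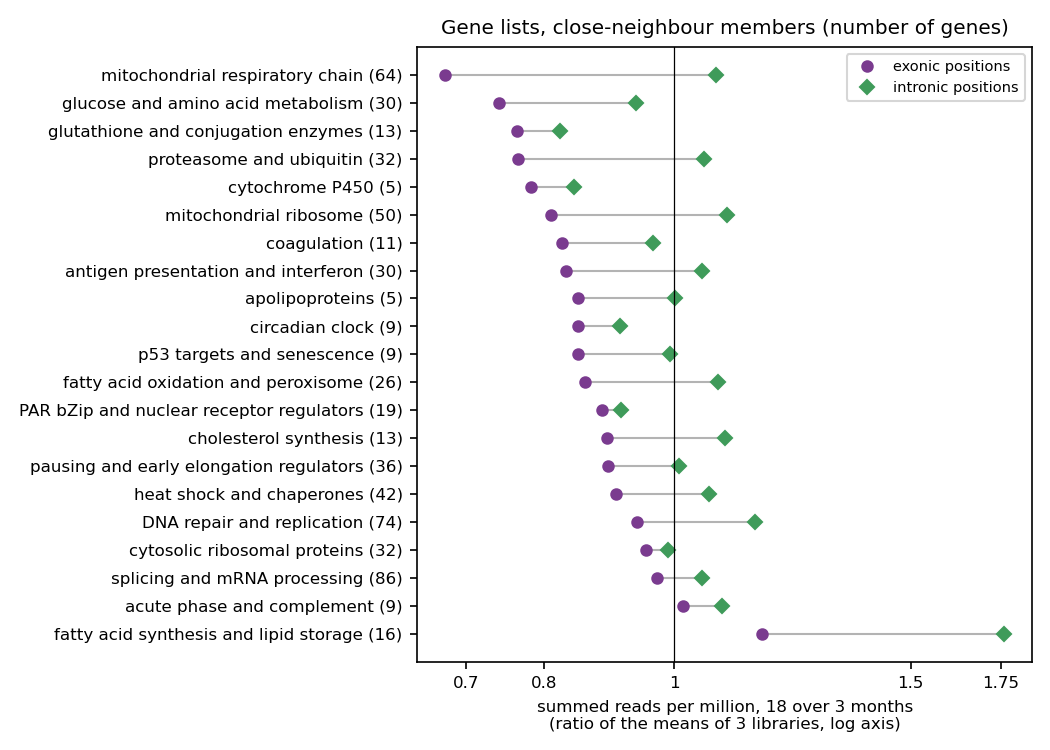
Summed RPM at exonic (circles) and intronic (diamonds) positions, as the ratio of the 18-month mean over the 3-month mean of 3 libraries (log axis), for the close-neighbour members of each list, with the number of genes in parentheses. The respiratory chain stands at 0.675 in exons and 1.07 in introns, and fatty acid synthesis and lipid storage at 1.76 in introns, and in every list plotted the exonic ratio lies below the intronic ratio.

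Of 13 genes of conjugation and detoxification, 5 fell (38.5%, against 5.21% of all close-neighbour genes) by edgeR, and on intronic positions 1 was called. With only the 6 libraries in the fit 2 were called lower, and with a library left out 0 to 4. The sums were 0.764-fold in exons and 0.822-fold in introns, without overlap in either. Without Por, left out after its values were seen, the exonic sum was 0.786-fold without overlap and the intronic sum 1.02-fold with overlap, so that the intronic fall rested on Por. Por, the reductase that passes electrons to cytochrome P450 enzymes, had 417, 456 and 663 RPM at 3 months and 306, 283 and 272 at 18 months (-0.84, SE 0.21, edgeR adjusted p = 0.0376), with -0.90 in introns. Sult1a1, a sulfotransferase, fell by 0.89 and Gstp1, a glutathione transferase, by 0.65. Gsto1 was called too, as was its neighbour Gsto2 (-1.14), where 93.7% of the 3-month reads lay at a single position and the change elsewhere was 0.59. The Por call was kept in 3 of 9 fits that left out a library. Of 5 cytochrome P450 genes among the members, Cyp27a1, a sterol hydroxylase of bile acid synthesis, fell by 0.43.

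Acaca, acetyl-CoA carboxylase, which makes malonyl-CoA for fatty acid synthesis, rose. It had 550, 573 and 417 RPM at 3 months and 991, 883 and 862 at 18 months (0.83, SE 0.13, edgeR adjusted p = 0.0075). Its intronic reads rose by 0.80, from 466 ± 78.3 to 849 ± 65.7 (SD), and the call was kept whichever library was left out. In its list of fatty acid synthesis and lipid storage, Acaca rose and 3 of 16 members fell (18.8%, against 5.21% of all close-neighbour genes). Mogat1, the other call above 0, passed the read filter through 18 months alone, so it is given as a description. The falls were Pnpla2, the triglyceride lipase ATGL (-0.75), Elovl3, an elongase (-0.61), and Cideb, a lipid droplet protein. The median of the list was 0.27. Intronic reads of the list were 1182, 1395 and 1137 at 3 months and 2134, 2601 and 1802 at 18 months, 1.76-fold without overlap. Exonic reads overlapped, since 18-month library 2 stood at 3648 and the other two 18-month libraries at 1922 and 1580.

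In fatty acid oxidation, 5 of 26 members fell and 1 rose (19.2% and 3.85%, against 5.21% and 4.07% of all close-neighbour genes). Acox2, a peroxisomal oxidase of branched chains, had 316, 278 and 334 RPM at 3 months and 195, 219 and 207 at 18 months (-0.58, SE 0.09, edgeR adjusted p = 0.00701). Acadvl (-0.58), Acad12 (-0.57), Acad10 (-0.47) and Echs1, all enzymes of acyl-CoA breakdown, were the other falls. In glucose and amino acid metabolism 3 of 30 fell by edgeR (10%), and DESeq2 called 6 lower. Asl, the argininosuccinate lyase of the urea cycle, had 558, 693 and 509 at 3 months and 313, 371 and 306 at 18 months (-0.83, SE 0.19, edgeR adjusted p = 0.0261), with -0.89 in introns. Slc37a4, the glucose-6-phosphate transporter, fell by 0.60, and Bckdha, of branched-chain amino acid breakdown, by 0.46. All 3 were lower in each 18-month library than in any at 3 months.

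DNA repair and replication was the list with more rises than falls: 6 of 74 members rose (8.11%) and 1 fell (1.35%), against 4.07% and 5.21% of all close-neighbour genes, and the median was 0.06. With a library left out, edgeR called 0 to 6 members higher and 0 to 3 lower. Prkdc, the catalytic subunit of DNA-dependent protein kinase, had 57.8, 62.6 and 54.9 RPM at 3 months and 80.3, 84.0 and 104 at 18 months (0.62, SE 0.11, edgeR adjusted p = 0.0129). Fancl, a ubiquitin ligase of the Fanconi pathway, rose by 0.59, Parp3 by 0.51 and Mlh3, of mismatch repair, by 0.43. Polb and Polk, both repair polymerases, were also called higher, and Xrcc1 lower. Intronic reads of the list were 1195, 1300 and 1230 at 3 months and 1384, 1440 and 1451 at 18 months, 1.15-fold without overlap, whereas exonic reads overlapped (0.939-fold).

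Calls among regulators of liver transcription were lower at 18 months by edgeR. Nr1d1, the clock repressor REV-ERBα, had 225, 221 and 212 RPM at 3 months and 139, 154 and 142 at 18 months (-0.60, SE 0.09, edgeR adjusted p = 0.00706), also in introns (-0.69) and whichever library was left out. It was the 1 clock member of 9 that edgeR called (11.1%, against 5.21% of all close-neighbour genes called lower), and DESeq2 called 2, both lower. Of 19 nuclear receptors and related factors, edgeR called 3 lower (15.8%) and DESeq2 4 lower and 1 higher. Those called by edgeR were Cebpd, of the C/EBP family (-0.81), Nr1i2, the pregnane X receptor (-0.42), and Creb3l3 (-0.40). Among 36 regulators of early elongation, Eaf2, an ELL-associated factor, rose (1.27) and Trim28 fell (-0.51), 2.78% in each direction. The list of apolipoproteins held 1 call in 5 members (20%), Apom, which carries sphingosine 1-phosphate on lipoproteins. It had 37.2, 26.4 and 30.8 at 3 months and 12.5, 15.7 and 15.2 at 18 months (-1.11, SE 0.14, edgeR adjusted p = 0.00299), but in introns -0.47 (edgeR adjusted p = 0.121).

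In antigen presentation and interferon response, 4 of 30 members fell (13.3%) and 1 rose (3.33%), against 5.21% and 4.07% of all close-neighbour genes. Among the falls were Cd74, the invariant chain of MHC class II (-0.99), and Irf5 (-0.57), and the rise was Ifi27 (0.66). Cd74 had 67.7, 37.4 and 44.3 RPM at 3 months and 30.1, 25.2 and 20.7 at 18 months, so that the groups did not overlap. Cd74 is expressed by macrophages and B cells, whose marker sums are given above, and their part in its fall was not tested. Heat shock and chaperone genes had 2 rises and 6 falls in 42 members (4.76% and 14.3%), among them the cyclophilin Ppid (0.45) and the Hsp70 partners Dnajb1 (-0.55) and Dnaja3 (-0.47). Splicing genes had 1 rise, Srsf11 (0.32), and 5 falls in 86 (1.16% and 5.81%, against 4.07% and 5.21% of all close-neighbour genes), and p53 targets 1 fall in 9 (11.1%), Trp53inp2 (-0.47). The tested members of cholesterol synthesis (13), coagulation (11), acute phase and complement (9), immediate early genes (3) and carboxylesterases (1) held 0 calls by edgeR. At an unadjusted p under 0.05, edgeR had 2 lower genes in coagulation, 1 each in acute phase and immediate early genes, and Ces2g higher, which DESeq2 called at its adjusted p. The coagulation genes with most reads, Plg and Serpinc1, had changes of -0.26 and -0.06.

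Of 32 cytosolic ribosomal protein genes, 4 fell (12.5%, against 5.21% of all close-neighbour genes). In 3 of them (Rpl12 -1.03, Rpl17 -0.53 and Rpl23 -0.47) the position with most reads lay 1 base past the annotated end of a small nucleolar RNA hosted by the gene. Such RNAs are commonly trimmed out of introns and guide the modification of ribosomal RNA. The chaperonin gene Tcp1 (-0.76) and the splicing factor gene Sf3b4 (-0.62) shared this feature. These positions held 67.3%, 29.3%, 35.7%, 32.5% and 29.2% of the 3-month reads of Rpl12, Rpl17, Rpl23, Tcp1 and Sf3b4. With 5 bases around small RNA genes left out, an alternative chosen after the positions were seen, all 5 calls were lost, at -0.17, -0.34, -0.27, -0.22 and -0.28. The sum of the list was 2062 to 2575 RPM at 3 months and 3126, 1712 and 1781 at 18 months, where library 1 stood far above the others. The remaining ribosomal protein call, Rpl18 (-0.56), has no such position.

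The ends of 4 of these small RNAs are shown because the positions with most reads lie just past them. Without that single position, mean RPM of the host genes changed by -0.32 (Rpl12), -0.32 (Rpl23), -0.71 (Tcp1) and -0.40 (Sf3b4) on the log2 scale. Each has the sequence ACA 3 bases before its end, a box that defines the H/ACA class. In each stretch of 41 bases, 5′ to 3′ on the strand of the gene, capitals mark ACA and the position of the reads. They are chr2:32963391-32963431 on the plus strand (Snora65), chr11:97781628-97781668 on the minus strand (Snora21), chr17:12922888-12922928 on the plus strand (Snora20) and chr3:96176458-96176498 on the plus strand (Gm22027).
Rpl12: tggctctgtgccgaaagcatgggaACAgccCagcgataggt
Rpl23: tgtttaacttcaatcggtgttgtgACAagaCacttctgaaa
Tcp1: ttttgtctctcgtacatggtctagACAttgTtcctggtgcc
Sf3b4: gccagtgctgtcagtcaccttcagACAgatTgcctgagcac

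Promoter-proximal pausing is the halt of Pol II shortly after initiation, before it is released into the gene body. It was compared as the change of reads within 200 bases of the start site relative to reads of the gene body, in 3736 close-neighbour genes with a mean of 10 or more reads in that window. Relative promoter-proximal reads fell in 2105 of these genes and rose in 4, 56.3% and 0.107% of those tested, so that 56.5% were called (edgeR quasi-likelihood test, adjusted p under 0.05). The background over all 7499 genes tested was 59.0%, with 58.9% falling and 0.12% rising, and isolated genes stood at 61.6% (61.5% falling, 0.133% rising). The median change was -0.89 in close-neighbour genes and -0.95 in isolated genes, and 96.3% of the close-neighbour estimates were below 0. The limit of 10 reads was on the mean of the 6 libraries, so a gene could pass it through 3 months alone. Genes of that kind were not counted apart and are part of these shares. The number called was 1108 without 18-month library 3 and 1371 without 3-month library 1, and 991 genes remained called whichever of the 9 libraries was left out.

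The median log2 ratio of promoter-proximal over gene-body density was 1.27, 1.14 and 1.07 in the 3-month libraries and 0.40, 0.60 and -0.06 in the 18-month libraries. The ages did not overlap, and 18-month library 3 was the lowest. The difference was -0.85 (exact two-sided permutation test, p = 0.1, the smallest possible). In close-neighbour genes with 50 or more promoter-proximal reads it was -0.88. Promoter-proximal density alone moved by -0.83 and gene-body density by 0.07, the latter with overlap. Isolated genes began higher, at 1.55, 1.38 and 1.35, and had 0.56, 0.82 and 0.12 at 18 months. The difference between the classes narrowed from -0.27 ± 0.03 to -0.19 ± 0.03 (SD), a shift of 0.08 without overlap (exact two-sided permutation test, p = 0.1). With 50 or more promoter-proximal reads the shift was 0.043, with overlap (exact two-sided permutation test, p = 0.2).

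Sense reads around the start sites of 3698 close-neighbour genes peaked 40 to 100 bases after the start in every library. Of the 3736 genes tested for pausing, those with the highest single peaks were left out of this profile. The peak stood at 11.6, 9.66 and 9.52 reads per kilobase, in 1000000 reads of a library, at 3 months and 5.40, 6.37 and 3.90 at 18 months. Relative to the level 400 to 500 bases after the start it was 4.91-fold, 4.51-fold and 3.91-fold at 3 months, and 2.72-fold, 2.71-fold and 1.96-fold at 18 months. The lowest 3-month peak was thus well above the highest 18-month peak.

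**Figure D5:**
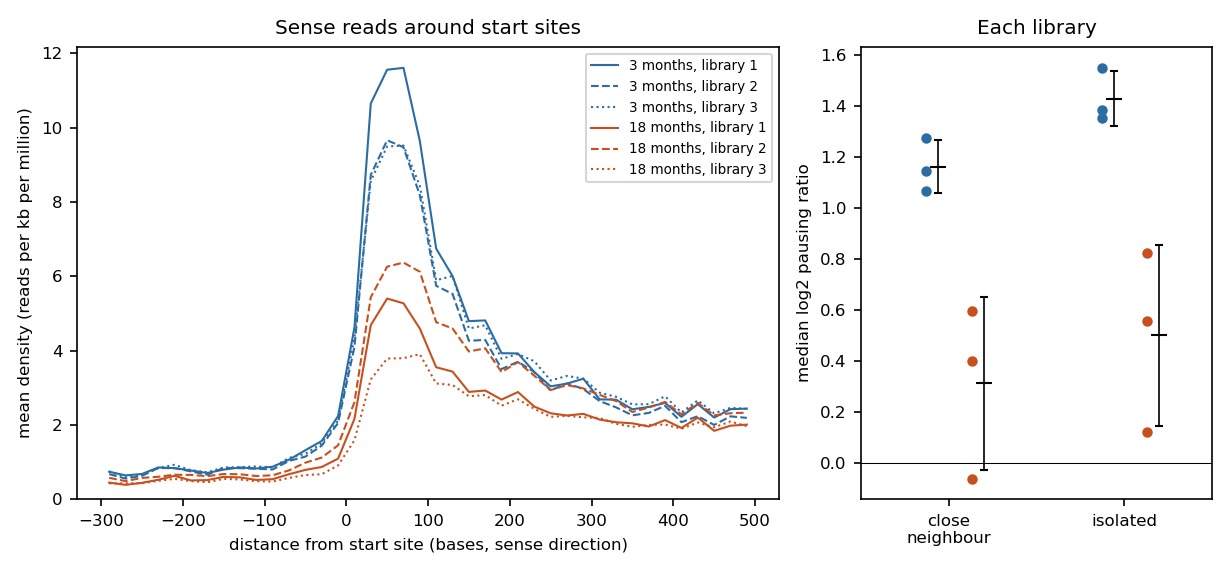
Left, mean density of sense reads (reads per kilobase in 1000000 reads of a library) against distance from the start site (bases) in 3698 close-neighbour genes, a line per library. Tested genes with the highest single peaks are left out. Peaks of the lines are 9.52 to 11.6 at 3 months and 3.90 to 6.37 at 18 months. Right, median log2 pausing ratio of each library (points, blue 3 months, orange 18 months) with mean and SD (n = 3) for close-neighbour and isolated genes; all 18-month points lie below the 3-month points.

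The fall in pausing was seen in every arrangement of neighbours, in 57.0% of genes with a divergent, 57.1% with a convergent and 50.5% with a tandem neighbour, 54.3% with a nested gene and 54.4% with a same-strand overlap (calls in either direction). Genes with a divergent neighbour and the other close-neighbour genes had nearly the same median ratio in each library, and the difference between them moved by 0.01 (exact two-sided permutation test, p = 0.7), from 0.00 ± 0.02 to 0.01 ± 0.04 (SD). Among genes with 50 or more promoter-proximal reads it turned to -0.16 (exact two-sided permutation test, p = 0.1, the smallest possible). Of 433 divergent pairs with both genes tested, both fell in 142 (32.8%), against 178 of 499 convergent (35.7%) and 84 of 341 tandem pairs (24.6%), differences that were not tested. The share in isolated pairs was not computed. Since most single genes fell, these counts do not show whether neighbours fell together more often than other genes. Among 329 genes called for gene-body reads that had a pausing test, 166 were also called for pausing (50.5%, against 56.5% of all close-neighbour genes tested).

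Ift74, a protein of transport in cilia, had the largest fall in pausing among the called genes, with a pausing index (density ratio) of 15.1, 36.8 and 65.2 at 3 months and 3.84, 3.93 and 3.23 at 18 months (-3.31, SE 0.56, edgeR adjusted p = 0.000499). Its 3-month libraries spanned a wide range, but each was above every 18-month library. The promoter-proximal window of Ift74 held 16, 38 and 86 reads at 3 months and 2, 5 and 4 at 18 months. It passed the limit of 10 reads through 3 months alone and so had to differ in unscaled reads. Its test is given as a description. Sstr2, a somatostatin receptor, also fell (-2.93), and with at most 5 reads counted per position its call was lost, at -0.56. Of the 4 rises, Dpysl3, of the dihydropyrimidinase-like family (1.46), and Cacna2d3, a calcium channel subunit (1.02), had 20 or more promoter-proximal reads on average, and both calls were lost with that limit. Motifs were read against pausing as well: GGGCGG was present in 75.8% of matched promoters of close-neighbour genes whose pausing fell and in 64.4% of those tested and not called. The median GC content of these promoters was 63.3% and 61.0%. The part of GC content and of read number in this difference was not tested. The other motifs searched were CCAAT (40.7% and 37.4%), CCGGAAG (24.7% and 23.7%), GCATGCG (9.03% and 6.75%), CACGTG (10.5% and 10.4%), TATAAA (5.61% and 5.76%) and AAGATGG (7.18% and 9.7%).

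Polymerase beyond the gene end was compared with the gene body in 4360 close-neighbour genes with enough unshared bases, from 200 to 2200 bases after the end. The median log2 ratio was -1.09, -1.13 and -1.25 at 3 months and -1.35, -1.45 and -1.53 at 18 months. The ages did not overlap, with a difference of -0.29 (exact two-sided permutation test, p = 0.1). In 5338 isolated genes it was -0.27, and the difference between the classes moved by -0.02 (exact two-sided permutation test, p = 0.2). With a pseudocount of 1 in place of 0.1 the close-neighbour difference was -0.10.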

How the data were processed

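The deposited files hold unscaled read counts by genome position, with a file per strand of every library. Per the study's methods and the submitters' processing notes, reads were trimmed (cutadapt 1.13), aligned (STAR 2.7.3a, GRCm38), kept where unique, and reduced to the 5′ end of the read (bedtools 2.29.2). The treatment of duplicates is not given in the sources used here. Sense counts were summed per gene over canonical transcripts of GENCODE vM21, without positions shared by same-strand genes. Gene-body counts of all 9 libraries, including 3 at 12 months, entered 1 edgeR 4.0.16 fit by age (TMM, limma 3.58.1, R 4.3.3), which tested 18 against 3 months. Pausing was the interaction of region and age with a term per library. Library medians used log2 with a pseudocount of 0.1. Scripts used Python 3.11.15, numpy 2.4.6, pandas 2.3.3, scipy 1.17.1 and matplotlib 3.10.9, with DESeq2 1.42.0 as an alternative. In simulated data, the gene-body test recovered 90% of 200 genes changed by 1 (log2) among 11498, with 5.26% of calls false. The pausing test recovered 31.5% of 200 changed by -1.5 among 7499, with 5.97% false. That simulation gave all genes the same assumed dispersion, had no shift of single libraries and changed only 200 genes. The real data differ in these points, so its shares need not hold for the real pausing test. Members and lists were chosen with earlier results of these data known. Named genes were the 10 largest called rises and falls with 50 or more reads and no overlap, the 3 largest called pausing changes each way with at least 20 promoter-proximal reads, the leading called pairs (5 divergent, 3 convergent, 3 tandem), and at most 4 called members per list (the 2 with most reads where none was called). Further called pairs and list members, the parts of Noct, the Olfr1029 run and the exonic and intronic sums were chosen after their values were seen. Some genes that this rule names are not reported here.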

Additional observations from a re-analysis of the deposited data

Results flagged for a closer look

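Reads of the mitochondrial chromosome, which enter no comparison above, took a larger share of the 18-month libraries. They made up 0.547% to 0.749% of a library at 3 months (mean 0.629% ± 0.106, SD) and 1.12% to 1.29% at 18 months (mean 1.20% ± 0.0858), without overlap. Their part in the lower exonic reads of nuclear genes of the respiratory chain was not tested.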

How the results depend on the processing

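The number of close-neighbour genes called for gene-body reads, 515 in the main setting, was 332 with only the 6 libraries in the fit, 316 on intronic positions and 117 to 651 when a library was left out. In 9 further settings it was 451 to 747. For pausing it was 2109, and 1108 to 2375 with a library left out. The replicate numbers do not pair the libraries: same-numbered libraries deviated together with correlations of -0.25 to 0.17, and with the replicate block 307 genes were called for gene-body reads. The median pausing difference of -0.85 was -0.54 with a pseudocount of 1 and -0.99 to -0.66 with a library left out. The class difference in pausing of 0.08 was 0.043 with 50 or more promoter-proximal reads (exact p = 0.2) and 0.06 to 0.10 with a library left out. The divergent against other difference of 0.01 reversed to -0.16 with 50 or more promoter-proximal reads (exact p = 0.1), and ran from -0.0090 (without 18-month library 1) to 0.026 with a library left out. The downstream difference of -0.29 was -0.38 with a pseudocount of 0.01, -0.10 with 1, and -0.33 to -0.24 with a library left out. The gene-body class difference of -0.04 was -0.05 to -0.03 with a library left out. Divergent pairs with both genes called numbered 11, 21 with DESeq2 and 3 with only the 6 libraries. Of 2043 values for the named genes under alternatives, 1617 kept direction and side of the threshold, 414 lost the call, 6 gained it and 6 reversed. The reversed values were Gsto2 on intronic positions (0.65) and with at most 5 reads per position (0.54), Mrpl44 (0.17) and Mrpl40 (0.24) on intronic positions, Rpl17 with shared positions counted (0.057) and Cx3cr1 over its whole span (-0.38). The causes were not tested. Depth differed 3.29-fold between the libraries compared, and the smallest p of 3 against 3 libraries is 0.1.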
